A study of Homo sapiens with 12 samples.

Results

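The short arm of chromosome 3 held a stretch of neighbouring genes whose mRNA was lower in D283 medulloblastoma cells after inactivation of ABL1 and ABL2 than in cells with a scrambled control. The stretch runs over 16.25 Mb of GRCh38.p14, from the start of CNTN4 at base 2098866 of chromosome 3 to the start of SATB1, whose last base is 18445592. Its members are the genes whose lowest exon start lies between these bounds and whose mean was at least 5 CPM, a measure of counts scaled to the library total, in the inactivated or the control cells. This gave 67 of the 49651 genes with count values, which include genes without a single read. The 67 were 61 protein-coding genes, 5 long noncoding RNAs and 1 transcribed pseudogene. The bounds were drawn from the fold changes of these same libraries, so the members' fold changes and the counts of members past a threshold describe the stretch and are given with no p-value. A further 8 genes of the stretch, 4 of them at 5 CPM or more, were left out by rule and are not analysed here.

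D283 is a MYC-amplified cell line of medulloblastoma, a childhood tumour of the cerebellum. ABL1 and ABL2, a pair of related tyrosine kinase genes, had been genetically inactivated in 3 libraries, and 3 libraries came from cells with a scrambled control. The sources used here do not give how the genes were inactivated, nor whether a group was a clone or a pool. Separate cultures within a group are not stated in the labels either, so every p-value measures only the spread between these samples.

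The libraries held 34292341 to 49034159 counts in inactivated cells and 33505903 to 35893081 in control cells. At this depth a count of 0 allows up to 3 counts, or 0.0612 to 0.0895 CPM per library, for counting error only. Levels are CPM after TMM scaling between libraries (normalised CPM), and fold changes are log2 values of inactivated over control cells ± SE. ABL1 mRNA was 62.1, 62.3 and 61.1 normalised CPM in inactivated cells, against 157, 148 and 154 in control cells. ABL2 mRNA was 97.6, 112 and 102 normalised CPM in inactivated cells, against 144, 136 and 134 in control cells. Both targeted genes were lower in every inactivated library than in any control library, ABL1 by a log2 fold change of -1.31 ± 0.043 (adjusted p = 5.4e-15) and ABL2 by -0.41 ± 0.051 (adjusted p = 1.3e-06, both edgeR quasi-likelihood test). Of 8 Group 3 markers, 7 were at 1 CPM or more in some library, and the list summed to 2696 to 2760 CPM in inactivated cells and 2340 to 2375 CPM in control cells, while NRL had 0 counts. Its genes moved unequally, with OTX2 at 670 CPM in inactivated cells and 823 in control cells, IMPG2 at 318 in inactivated and 66.2 in control cells, and EYS at 19.8 in inactivated and 4.06 in control cells. CRX was also higher in every inactivated library, and the part of these markers in the members' values was not tested. Of 11 markers of fibroblasts, leukocytes and endothelium, COL1A1, DCN and PDGFRB were at 1 CPM or more, CD3E and COL3A1 were at 0, and the list summed to 34.7 to 37.9 CPM in inactivated cells and 43.0 to 46.3 CPM in control cells. Within it COL1A1 was at 15.2 CPM in inactivated cells and 8.05 in control cells, and PDGFRB at 19.1 in inactivated cells and 32.5 in control cells.

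Neighbouring genes on a chromosome share their DNA copy number and part of their chromatin surroundings, while their products can serve unrelated tasks. The short arm of chromosome 3 is known for frequent loss in kidney and lung cancers. The members of this stretch include enzymes of DNA repair, subunits of actin and secretory coats, chromatin regulators and the ubiquitin ligase receptor CRBN. DNA copy number and chromatin were not measured in the files used, and their part in the values below was not tested. In bulk RNA, a lower level in every cell and a loss from some of the cells cannot be told apart.

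Across the stretch, most members were lower in inactivated cells by about the same proportion. The median log2 fold change of the 67 members was -0.62, which puts the median member in inactivated cells at 64.9% of its control level, against a median of 0.0031 over all 14704 genes tested. The quartiles of the members were -0.81 and -0.50, and their extremes were -3.53 and 1.32. In 53 of the 67 members the inactivated level lay between 50% and 80% of the control level, in 6 it was under 50%, in 6 it was between 80% and 100%, and in 2 it was above the control level. Of the 67 members, 64 passed the threshold of 0.05 as lower, against 29.7% of all genes tested. As higher, 2 members, ITPR1 and SH3BP5, passed, against 29.6% of all genes tested, and IL17RC did not pass. All 3 inactivated libraries lay below all 3 control libraries in 63 members, against 31.9% of all genes tested, and above them in 2, against 31.4%. Since the bounds came from this contrast, nothing is read from these counts.

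The shift was of nearly the same size in each library. Relative to the control mean of each gene, the median member stood at -0.62, -0.65 and -0.595 on the log2 scale in inactivated replicates 1, 2 and 3, and at 0.0056, 0.0040 and -0.011 in control replicates 1, 2 and 3. Summed over members, the stretch took 3366 ± 10.97 normalised CPM in inactivated cells and 5132 ± 53.5 in control cells (SD, n = 3 each). No inactivated library approached a control library on either measure, which follows from bounds drawn from these same libraries, and nothing is read from it.

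**Figure D1:**
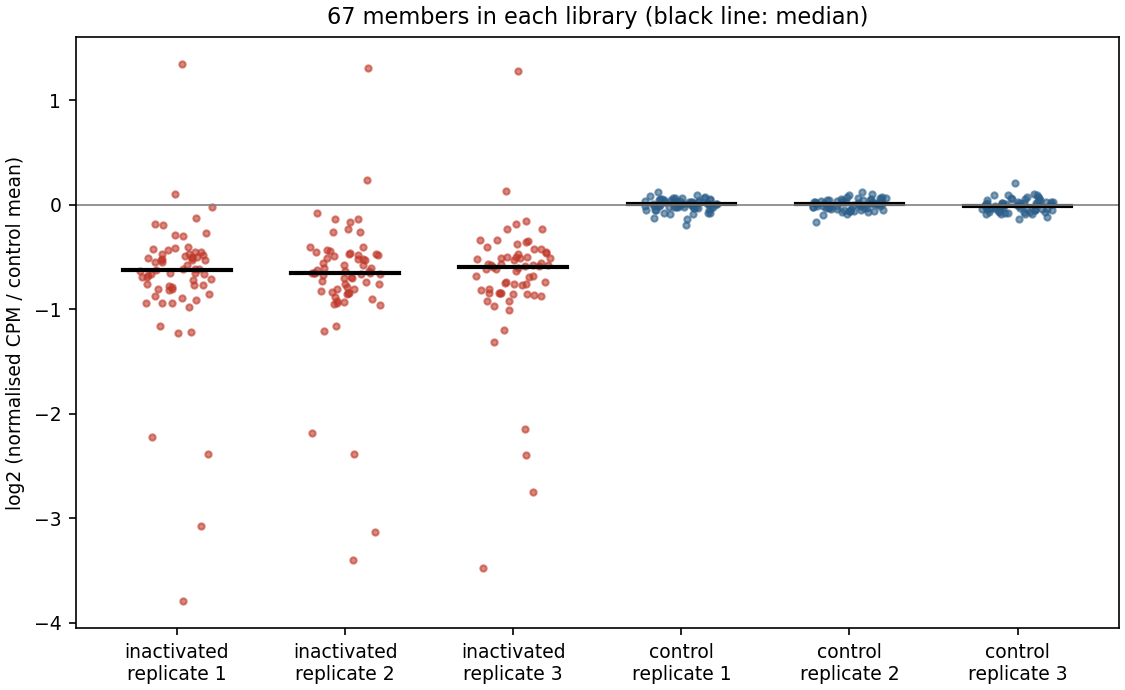
Each point is 1 of the 67 members in 1 library, as the log2 ratio of its normalised CPM to its control mean; black lines are medians. The medians of the 3 inactivated libraries lie between -0.65 and -0.595, those of the 3 control libraries within 0.011 of 0.

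The fold change had no steady trend along the stretch but differed between its parts. Over overlapping running windows of 11 members the median ran between -0.86 and -0.51. It was -0.83 from CRBN to THUMPD3, -0.51 from ARPC4 to BRK1, -0.86 from TAMM41 to TMEM43 and -0.54 from SH3BP5 to SATB1. All 57 windows were below 0, which follows from bounds drawn from low fold changes, and nothing is read from it. CNTN4, at the outer end, stood at -0.89 ± 0.056, and SATB1, at the inner end, at -0.45 ± 0.043. Between them, 9 members from TRNT1 to EDEM1, starting at 3.13 to 5.19 Mb, had a median of -0.77, and 56 members from RAD18 to TBC1D5, starting at 8.88 to 17.16 Mb, had a median of -0.58. The correlation of fold change with position over the 67 members was weak, with Pearson's r = 0.17 and Spearman's rho = 0.15, a description over genes that share the same 6 libraries. On the outer side, 17 genes with count values came before CNTN4, and none exceeded a mean of 0.193 CPM in either group. The outer edge could therefore not be located from expressed genes.

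Beyond SATB1, no gene reached 5 CPM over 1.5 Mb, and the next genes were less shifted. RAB5A, a GTPase of early endosomes, had 81.3, 82.8 and 86.5 normalised CPM in inactivated cells, against 95.5, 104 and 100.2 in control cells, a log2 fold change of -0.26 ± 0.045. KAT2B, a histone acetyltransferase, stood at -0.43 ± 0.076, and SGO1, a protector of centromere cohesion, at -0.25 ± 0.061. KAT2B therefore lay as far down as SATB1, the last member, and the inner edge was not sharp at that gene. The next 39 genes at 5 CPM or more, up to 36.4 Mb from CNTN4, had a median of -0.13, and 27 of them had a lower fitted value. Past the threshold, 21 of the 39 were lower and 9 higher, against 29.7% and 29.6% of all genes tested. Lower calls beyond the bound were thus still more frequent than among all genes tested, but the 2 sets differ in level. All genes tested include 4567 under 5 CPM in both groups, of which 19.1% were lower and 26% higher. The shares among tested genes at 5 CPM or more are therefore above 29.7% and 29.6%, and the excess of lower calls is smaller than it appears. Over all 518 genes of the rest of chromosome 3 at this level, the median was -0.058, with 203 lower and 136 higher, beside the same shares of all genes tested.

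**Figure D2:**
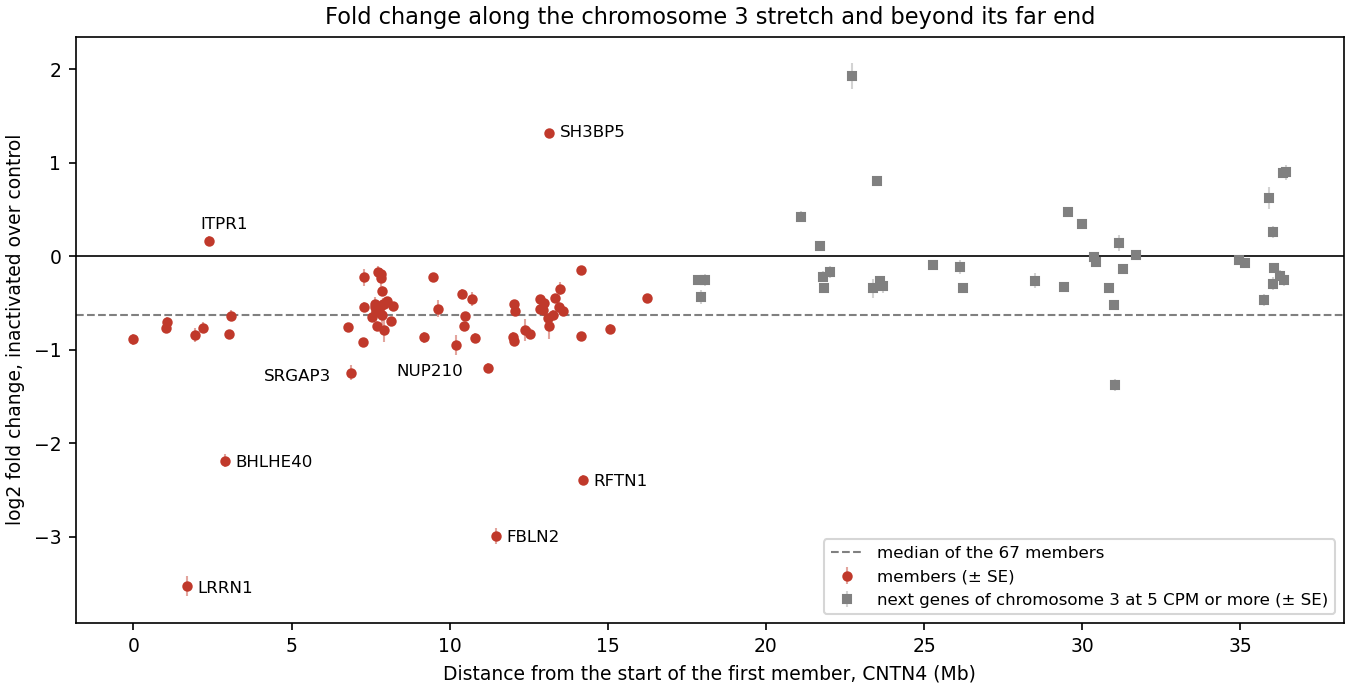
The log2 fold change (± SE) of each member is plotted in red against its distance in Mb from the start of CNTN4, and the next 39 genes of chromosome 3 at 5 CPM or more are plotted in grey. Most members lie near the dashed median of -0.62, with LRRN1, FBLN2, RFTN1 and BHLHE40 well below it and ITPR1 and SH3BP5 above 0.

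Most members lay near the median of the stretch. Within 0.25 of the median were 47 members, 10 lay further below and 10 further above. The interquartile range of the members' log2 fold changes was 0.306. It was 0.390 over the rest of chromosome 3 at 5 CPM or more and 0.429 over all genes at that level. The bounds were drawn from these fold changes, so nothing is read from the narrower range of the members. The SEs of the members ran from 0.041 to 0.14, with a median of 0.052, so the spread among members was wider than the error of a single value.

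LRRN1, FBLN2, RFTN1 and BHLHE40 lay more than 1 below the median. LRRN1, a leucine-rich repeat membrane protein of developing neurons, had 1.28, 1.69 and 1.61 normalised CPM in inactivated cells, against 17, 19.2 and 17.4 in control cells, a log2 fold change of -3.53 ± 0.11. FBLN2, the extracellular matrix glycoprotein fibulin 2, had 4.29, 4.11 and 5.38 normalised CPM in inactivated cells, against 37.2, 34.0 and 37.3 in control cells, at -2.99 ± 0.084. RFTN1, the lipid raft protein raftlin, had 25.1, 25 and 24.9 normalised CPM in inactivated cells, against 132, 128 and 133 in control cells, at -2.39 ± 0.045. In each of these genes the highest inactivated library was far below the lowest control library. BHLHE40, a transcriptional repressor tied to the circadian clock, had 6.34, 6.49 and 6.66 normalised CPM in inactivated cells, against 30.5, 28.3 and 29.8 in control cells, at -2.19 ± 0.067. CRBN and SUMF1 on either side of LRRN1 were at -0.70 and -0.84, and OXNAD1 and TBC1D5 on either side of RFTN1 at -0.86 and -0.77. FBLN2 lay between NUP210 at -1.19 and CHCHD4 at -0.86, and BHLHE40 lay next to ITPR1 at 0.16.

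SRGAP3 and NUP210 came next. SRGAP3, a GTPase-activating protein that acts downstream of SLIT and ROBO in neurons, had 5.19, 5.24 and 4.88 normalised CPM in inactivated cells, against 11.8, 12 and 12.6 in control cells, at -1.24 ± 0.083. NUP210, a membrane glycoprotein of the nuclear pore, had 33.3, 34.8 and 33.8 normalised CPM in inactivated cells, against 83.3, 75.8 and 74.1 in control cells, at -1.19 ± 0.052. These 2 genes, with the 4 above, were the 6 members under 50% of their control level.

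Only SH3BP5 and ITPR1 were higher in inactivated cells. SH3BP5, a guanine nucleotide exchange factor for RAB11 that also binds the kinase JNK at mitochondria, had 104, 101 and 99.4 normalised CPM in inactivated cells, against 39.4, 41.4 and 41.6 in control cells, at 1.32 ± 0.045. Its levels in the groups were far apart, and the neighbouring members CAPN7 and METTL6 were at -0.66 and -0.62. SH3BP5 shares 57.5% of its exon bases with SH3BP5-AS1 on the opposite strand, which had 3.28, 5.54 and 4.06 normalised CPM in inactivated cells, against 7.96, 7.32 and 6.68 in control cells. The sources used here do not say whether strands were separated in counting, so reads in the shared bases cannot be assigned to either gene with certainty. ITPR1, the calcium release channel of the endoplasmic reticulum gated by inositol trisphosphate, had 66.9, 73.6 and 68.2 normalised CPM in inactivated cells, against 65.2, 62.8 and 58.7 in control cells, at 0.16 ± 0.051. The groups of ITPR1 did not overlap but came close, at 66.9 and 65.2 normalised CPM, and without control replicate 3 its log2 fold change was 0.11 and no longer passed the threshold.

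**Figure D3:**
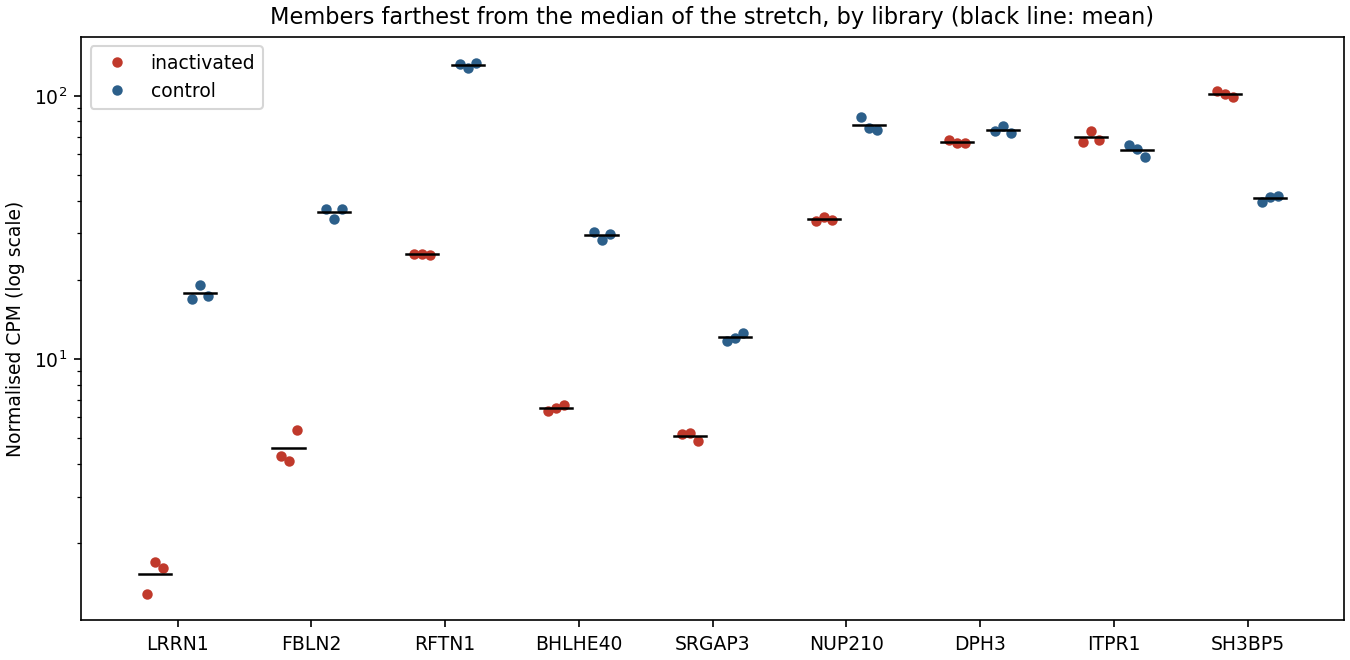
Normalised CPM on a log axis in each library for the 9 members farthest from the median of the stretch or nearest to no change; red points are inactivated libraries, blue points control libraries and black lines group means. LRRN1 shows the widest gap, with 1.28 to 1.69 in inactivated cells and 17 to 19.2 in control cells, and SH3BP5 is the reverse, with 99.4 to 104 in inactivated cells and 39.4 to 41.6 in control cells.

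The sequences before the start sites of these divergent members are shown because their fold changes depart most from those of their neighbours. They are the 150 bases before the RefSeq start on GRCh38.p14, read in the direction of the gene, with capitals marking GC boxes (GGGCGG) and CCAAT boxes (CCAAT) on either strand. The windows are chr3:3799281-3799430 for LRRN1, chr3:13548975-13549124 for FBLN2, chr3:4979287-4979436 for BHLHE40 and chr3:4493198-4493347 for ITPR1, all on the plus strand, and chr3:16513700-16513849 for RFTN1 and chr3:15332587-15332736 for SH3BP5, both on the minus strand.
LRRN1: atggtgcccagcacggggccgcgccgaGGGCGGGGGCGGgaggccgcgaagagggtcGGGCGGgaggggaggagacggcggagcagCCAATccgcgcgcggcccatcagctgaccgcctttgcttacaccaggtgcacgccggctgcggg
FBLN2: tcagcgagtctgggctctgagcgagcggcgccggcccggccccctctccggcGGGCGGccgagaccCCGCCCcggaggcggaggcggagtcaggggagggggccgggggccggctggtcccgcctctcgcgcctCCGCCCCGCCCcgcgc
RFTN1: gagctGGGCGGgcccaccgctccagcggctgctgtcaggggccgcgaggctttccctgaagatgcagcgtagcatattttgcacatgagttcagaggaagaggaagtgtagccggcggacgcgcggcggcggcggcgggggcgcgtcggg
BHLHE40: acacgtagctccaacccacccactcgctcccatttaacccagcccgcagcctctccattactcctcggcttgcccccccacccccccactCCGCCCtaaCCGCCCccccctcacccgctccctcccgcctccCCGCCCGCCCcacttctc
SH3BP5: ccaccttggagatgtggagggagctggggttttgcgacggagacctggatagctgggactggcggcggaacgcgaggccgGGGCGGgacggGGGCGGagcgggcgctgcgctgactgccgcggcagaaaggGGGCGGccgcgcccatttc
ITPR1: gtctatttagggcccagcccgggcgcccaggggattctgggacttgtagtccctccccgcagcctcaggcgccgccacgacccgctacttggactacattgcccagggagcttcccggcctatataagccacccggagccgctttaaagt
FBLN2 and BHLHE40 held 4 GC boxes each in these windows, LRRN1 held 3 with 1 CCAAT box, SH3BP5 held 3 and RFTN1 held 1, while the ITPR1 window held neither motif. Some of the GC boxes overlap each other, as in the last pair of FBLN2 and of BHLHE40. G and C made up 84% of the FBLN2 window, 76.0% of the LRRN1 window, 72.7% of the SH3BP5 window, 70.7% of the BHLHE40 window, 69.3% of the RFTN1 window and 63.3% of the ITPR1 window. SH3BP5, the member farthest above 0, lay among the low members in GC content and number of GC boxes, whereas ITPR1 had the lowest GC content of the 6. The RefSeq start of SH3BP5 lies inside its counted span, downstream of the outermost start in the count table.

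Of the DNA repair members, all 5 were lower in every inactivated library than in any control library, with a median log2 fold change of -0.51. Among all genes tested, 31.9% lay wholly below and 31.4% wholly above. Here and in the role groups that follow, counts without overlap follow from the bounds, and nothing is read from them. FANCD2, the protein monoubiquitinated in the Fanconi anaemia response to crosslinks, had 102, 104 and 97.3 normalised CPM in inactivated cells, against 148, 149.97 and 136 in control cells, at -0.51 ± 0.046. RAD18, the ligase that monoubiquitinates PCNA at stalled forks, had 72.4, 76.5 and 76.0 normalised CPM in inactivated cells, against 128, 132 and 121 in control cells, at -0.76 ± 0.045. XPC, which recognises helix distortion in nucleotide excision repair, had 36.0, 37.0 and 36.0 normalised CPM in inactivated cells, against 50.8, 53.2 and 51.7 in control cells, at -0.51 ± 0.047. The groups were well apart in all 3 genes, and RAD18 was the lowest of them by proportion. SETMAR, a fusion of a histone methyltransferase with a transposase, was lowest of the group at -0.76 ± 0.061, and OGG1, the glycosylase that removes oxidised guanine, was highest at -0.51 ± 0.074. OGG1 had 14.8, 12.4 and 14.4 normalised CPM in inactivated cells, against 18.6, 20.3 and 19.9 in control cells.

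The 10 chromatin and transcription members had a median of -0.55, and in all 10 the groups did not overlap. SETD5, a SET domain protein that works with a corepressor, had 230.2, 259 and 237 normalised CPM in inactivated cells, against 354, 348 and 353 in control cells, at -0.54 ± 0.046. TATDN2, a nuclease of the TatD family, had 99.7, 95.2 and 104 normalised CPM in inactivated cells, against 167, 158 and 157 in control cells, at -0.69 ± 0.045. VGLL4, a cofactor that competes with YAP for TEAD factors, had 126, 122 and 122 normalised CPM in inactivated cells, against 144, 140.3 and 146 in control cells, at -0.22 ± 0.041. VGLL4 was the least lowered of the group, although its libraries were still separate. PPARG, the nuclear receptor of fat storage, was near the level limit for membership and stood at -0.95 ± 0.11. TADA3, of the SAGA and ATAC acetyltransferases, BRPF1, a scaffold of MOZ complexes, and NR2C2, a nuclear receptor, lay between -0.56 and -0.54, while EAF1 and SATB1 both stood at -0.45.

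Kinases, calcium regulators and GTPase regulators held both the extremes RFTN1 and SH3BP5, with 11 members and a median of -0.64. ANKRD28, a regulatory subunit of protein phosphatase 6, had 88.4, 97.5 and 90.9 normalised CPM in inactivated cells, against 143, 139 and 134 in control cells, at -0.59 ± 0.046. TBC1D5, a GTPase-activating protein for RAB7, had 61.8, 70.0 and 66.3 normalised CPM in inactivated cells, against 119, 113 and 107 in control cells, at -0.77 ± 0.052. Both genes had no overlap between groups and lay on either side of the median of the stretch. IQSEC1, an exchange factor for ARF6, stood at -0.87, MTMR14, a phosphoinositide phosphatase, at -0.65, and CAMK1, a calmodulin-dependent kinase, at -0.59. IL17RC, a subunit of the interleukin 17 receptor, had 4.68, 4.88 and 4.03 normalised CPM in inactivated cells, against 5.23, 5.10 and 5.69 in control cells, at -0.23 ± 0.11.

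All 9 members of RNA processing and translation were lower on average, with a median of -0.62, and in 8 the groups did not overlap. LSM3, a subunit of the rings that bind U6 RNA and messenger RNA ends, had 125, 109 and 119.7 normalised CPM in inactivated cells, against 167, 187 and 178 in control cells, at -0.59 ± 0.052. THUMPD3, which takes part in guanosine methylation of transfer RNA, had 69.7, 71.7 and 70.6 normalised CPM in inactivated cells, against 135, 137 and 129.8 in control cells, at -0.92 ± 0.042. MKRN2, a RING and zinc finger protein, had 79.8, 76.1 and 78.9 normalised CPM in inactivated cells, against 134, 132 and 128 in control cells, at -0.75 ± 0.042. THUMPD3 was the lowest of the group by proportion, and its libraries were tightly grouped. DPH3, an electron donor for diphthamide synthesis, had 68.0, 66.0 and 66.5 normalised CPM in inactivated cells, against 73.6, 76.7 and 72.2 in control cells, at -0.15 ± 0.044. RPUSD3, a mitochondrial pseudouridine synthase, had 21.2, 18 and 18.4 normalised CPM in inactivated cells, against 21.6, 20.7 and 22.5 in control cells, at -0.17 ± 0.069. The groups of RPUSD3 overlapped. TRNT1, which adds the terminal CCA to transfer RNA, stood at -0.77, CCDC174 at -0.83 and METTL6, a transfer RNA methyltransferase, at -0.62.

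The 6 members of mitochondria and metabolism had a median of -0.57, and none overlapped between groups. MRPS25, a protein of the small mitochondrial ribosomal subunit, had 55.3, 55.8 and 49.9 normalised CPM in inactivated cells, against 78.5, 78.8 and 82 in control cells, at -0.57 ± 0.049. CHCHD4, the oxidoreductase that folds proteins entering the intermembrane space, had 32.2, 29.7 and 31.1 normalised CPM in inactivated cells, against 55.5, 54.3 and 58.6 in control cells, at -0.86 ± 0.051. HACL1, a lyase of peroxisomal fatty acid oxidation, had 26.7, 26.2 and 27.7 normalised CPM in inactivated cells, against 39.4, 41.0 and 36.8 in control cells, at -0.54 ± 0.055. CHCHD4 was the lowest and BTD the highest of this group. BTD, which frees biotin for reuse, had 12.8, 14.4 and 13.3 normalised CPM in inactivated cells, against 18, 17.5 and 16.2 in control cells, at -0.35 ± 0.070. OXNAD1 stood at -0.86, and TAMM41, an enzyme of cardiolipin synthesis, at -0.56.

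Trafficking, endoplasmic reticulum and autophagy gave 11 members with a median of -0.63, all without overlap between groups. CAPN7, a calpain protease linked to the ESCRT machinery, had 98.2, 99.2 and 97.4 normalised CPM in inactivated cells, against 154, 161 and 152 in control cells, at -0.66 ± 0.041. SEC13, a subunit of both the COPII coat and the nuclear pore, had 104, 93.6 and 100.5 normalised CPM in inactivated cells, against 142, 143 and 146 in control cells, at -0.54 ± 0.045. TMEM43, an inner nuclear membrane protein, had 85.7, 83.5 and 88.4 normalised CPM in inactivated cells, against 164, 161 and 157 in control cells, at -0.91 ± 0.042. After NUP210, TMEM43 was the lowest of this group. ATG7, the E1-like enzyme of autophagy, stood at -0.87, SUMF1, which activates sulfatases, at -0.84, EDEM1, of ER-associated degradation, at -0.63, and EMC3, of the ER membrane protein complex, at -0.37. CRELD1 had 10.1, 11.1 and 10.8 normalised CPM in inactivated cells, against 12.5, 12.1 and 12 in control cells, at -0.19 ± 0.072.

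The remaining groups were small. BRK1, the smallest subunit of the WAVE complex, had 131, 121 and 129 normalised CPM in inactivated cells, against 176, 175 and 179 in control cells, at -0.48 ± 0.043. ARPC4, a core subunit of the Arp2/3 complex that nucleates branched actin, had 97.4, 84.1 and 89.4 normalised CPM in inactivated cells, against 146, 157 and 151 in control cells, at -0.74 ± 0.051. Both actin genes were lower in every inactivated library, ARPC4 by more, and ARPC4 shares 31.5% of its exon bases with the readthrough gene ARPC4-TTLL3. CRBN, the substrate receptor through which thalidomide and its relatives act, had 37.9, 33.2 and 35.8 normalised CPM in inactivated cells, against 58.2, 59 and 56.7 in control cells, at -0.70 ± 0.052. CAND2, a relative of the cullin exchange factor CAND1, had 18.9, 17.3 and 20.4 normalised CPM in inactivated cells, against 26.8, 23 and 27.8 in control cells, at -0.46 ± 0.075. CNTN4, an axonal adhesion molecule of the contactin family, had 20.2, 21.9 and 20.4 normalised CPM in inactivated cells, against 39.8, 38.9 and 37.2 in control cells. CNTN4 was lower by a little more than the median member. GRIP2, a scaffold of glutamate receptors, had 3.55, 3.85 and 3.01 normalised CPM in inactivated cells, against 5.71, 6.08 and 6.38 in control cells, at -0.79 ± 0.11.

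The noncoding members lay between -0.79 and -0.23, inside the range of the coding ones. FGD5-AS1 had 157, 151 and 151 normalised CPM in inactivated cells, against 206, 214 and 208 in control cells, at -0.45 ± 0.041. EMC3-AS1 had 16.9, 16.7 and 16.7 normalised CPM in inactivated cells, against 23.8, 23 and 25 in control cells, at -0.51 ± 0.060. THUMPD3-AS1 had 7.30, 8.51 and 7.10 normalised CPM in inactivated cells, against 8.24, 9.82 and 8.91 in control cells, at -0.23 ± 0.095. Among these, THUMPD3-AS1 was the member whose groups overlapped. PRRT3-AS1 stood at -0.63, SH3BP5-AS1 at -0.75 and the pseudogene CIDECP1 at -0.79.

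**Figure D4:**
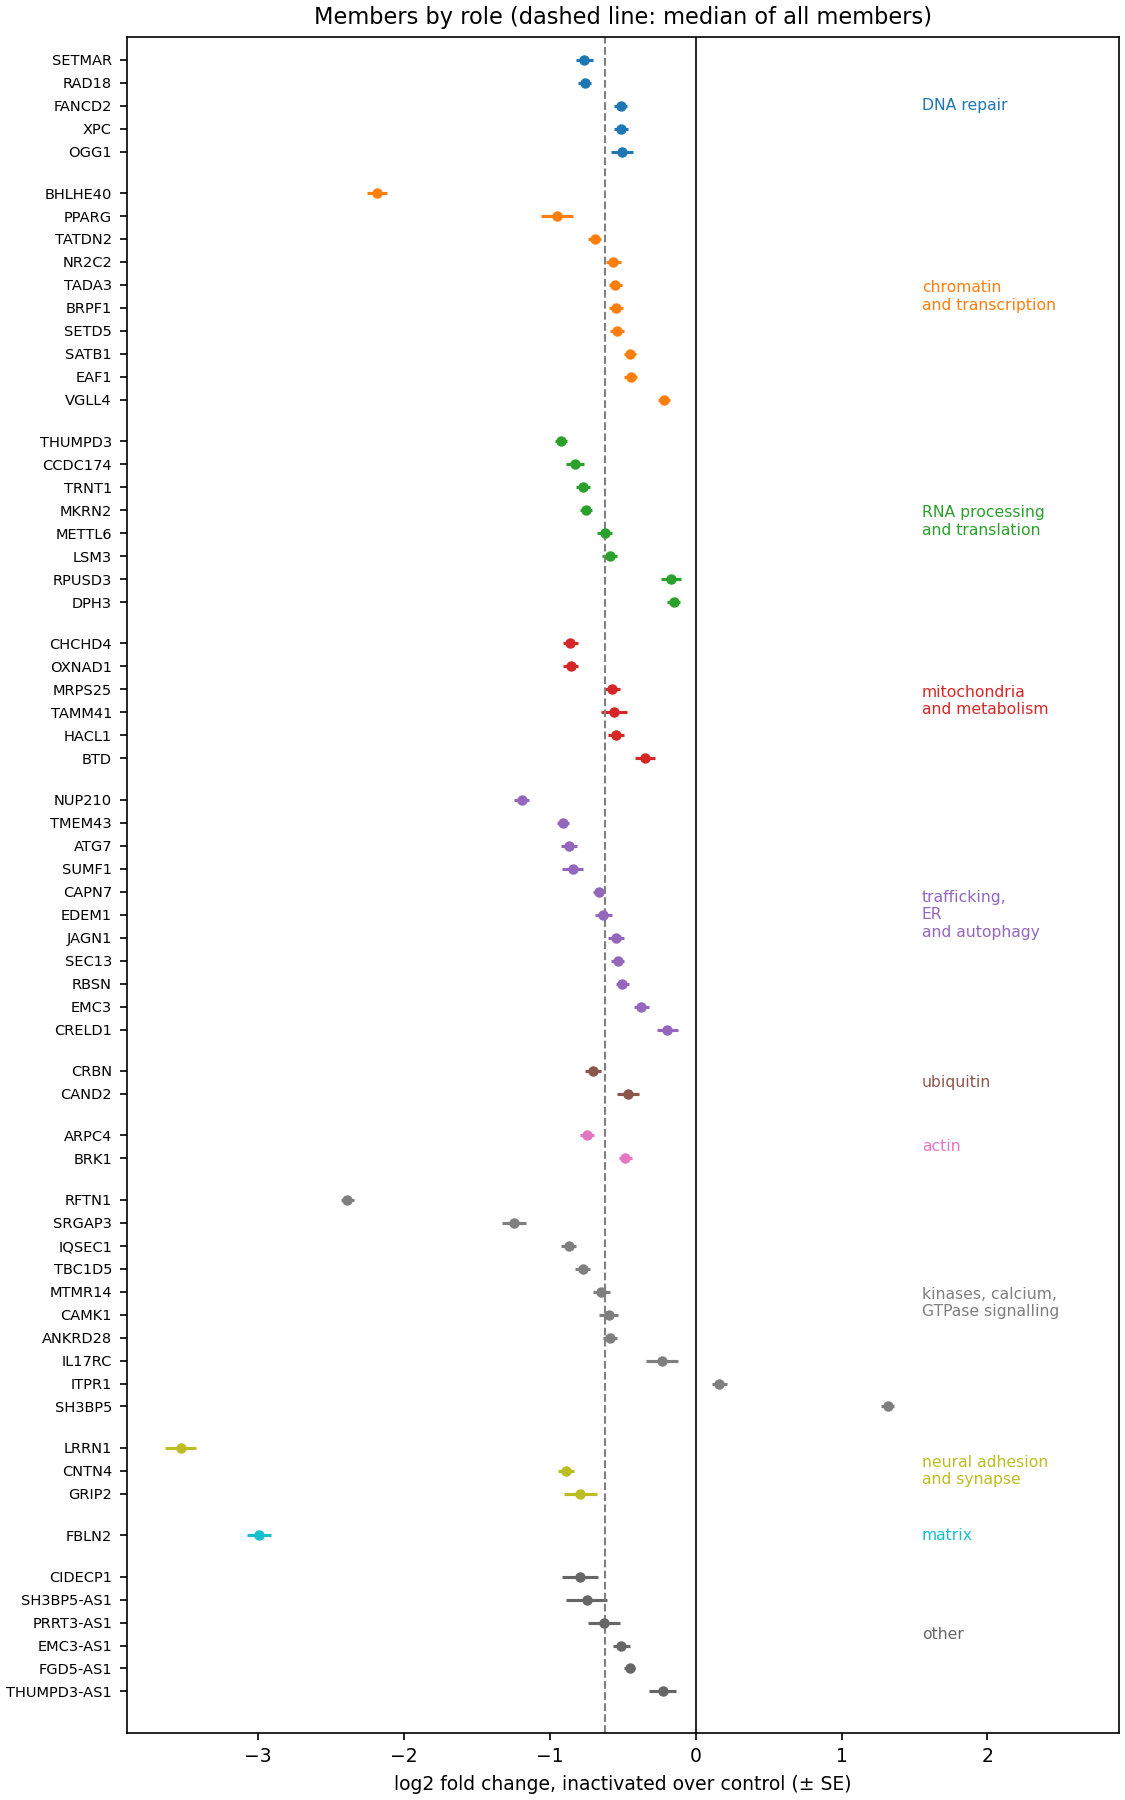
Log2 fold change (± SE) of 64 of the 67 members, grouped and coloured by role, with a dashed line at the median of -0.62 and a solid line at 0. Every role group with more than 1 member has its median between -0.89 and -0.51, and of the members drawn only SH3BP5 and ITPR1 lie right of 0.

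Read per kilobase of exon, the control level of the members ranged widely and had no visible relation to the shift. BRK1 reached 110 normalised CPM per kilobase in inactivated cells and 154 in control cells, and ARPC4 53.8 in inactivated cells and 90.1 in control cells. CNTN4, with the longest summed exons, reached 0.234 in inactivated cells and 0.434 in control cells. Over the 67 members the correlation of the log2 fold change with the log2 control level had r = 0.051 and rho = 0.034. It had r = -0.063 and rho = -0.15 with the log2 exon length, and r = -0.11 and rho = -0.25 with the log2 gene span. The 37 members on the plus strand had a median of -0.65 and the 30 on the minus strand -0.58. Of the members, 41 share exon bases with another gene, 39 of them with one on the opposite strand, where reads could be assigned to the wrong gene if strand was not used. In the 26 members that share none, the median was -0.61 and all 26 were lower in inactivated cells. That direction follows from bounds drawn from low fold changes, and nothing is read from it. The part of wrongly assigned reads in the other members was not tested.

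Head-to-head starts were found in 10 pairs of members, on opposite strands with starts within 1000 bases, and the members of a pair differed by a median of 0.194 in log2 fold change. XPC and LSM3, with 215 bases between their starts, stood at -0.51 ± 0.047 and -0.59 ± 0.052. CHCHD4 and TMEM43, 181 bases apart, stood at -0.86 ± 0.051 and -0.91 ± 0.042. These pairs differed by 0.076 and 0.048, less than the sum of their SEs. SRGAP3 and THUMPD3, with 26 bases between their starts, stood at -1.24 ± 0.083 and -0.92 ± 0.042, and THUMPD3-AS1 and SETD5, 120 bases apart, at -0.23 ± 0.095 and -0.54 ± 0.046. The pair farthest apart in fold change was DPH3 at -0.15 ± 0.044 and OXNAD1 at -0.86 ± 0.052, with 268 bases between their starts. DPH3 shares 71.9% of its exon bases with LOC124906218, an opposite-strand gene whose mean did not exceed 0.342 CPM in either group. The other 5 pairs were TADA3 with ARPC4 (-0.55 and -0.74), CIDECP1 with FANCD2 (-0.79 and -0.51), FGD5-AS1 with NR2C2 (-0.45 and -0.56), METTL6 with EAF1 (-0.62 and -0.45) and HACL1 with BTD (-0.54 and -0.35).

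The shared start regions of 4 pairs are shown because 1 short sequence lies before both genes, and for OXNAD1 the 150 bases before its start, most of the gap to DPH3. All are RefSeq sequence of the plus strand of GRCh38.p14, with capitals for the GC and CCAAT boxes as above and for the NRF1 site (TGCGCATGC) on either strand. Their positions are chr3:9363028-9363053 between SRGAP3 and THUMPD3, chr3:9397495-9397614 between THUMPD3-AS1 and SETD5, chr3:14124871-14125051 between CHCHD4 and TMEM43, chr3:14178602-14178816 between XPC and LSM3, and chr3:16265062-16265211 before OXNAD1.
SRGAP3/THUMPD3: gtagcctgacttccgtttccgggggc
THUMPD3-AS1/SETD5: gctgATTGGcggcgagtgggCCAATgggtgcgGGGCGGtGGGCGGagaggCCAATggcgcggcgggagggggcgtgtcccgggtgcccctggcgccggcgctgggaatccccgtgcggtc
CHCHD4/TMEM43: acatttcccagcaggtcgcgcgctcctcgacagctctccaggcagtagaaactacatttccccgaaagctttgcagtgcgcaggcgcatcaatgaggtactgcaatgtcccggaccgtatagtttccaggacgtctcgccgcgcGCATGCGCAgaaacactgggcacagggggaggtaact
XPC/LSM3: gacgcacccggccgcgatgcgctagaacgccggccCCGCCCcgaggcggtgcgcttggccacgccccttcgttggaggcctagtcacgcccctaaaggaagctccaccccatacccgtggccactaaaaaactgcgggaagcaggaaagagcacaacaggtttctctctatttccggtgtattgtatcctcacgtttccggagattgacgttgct
OXNAD1: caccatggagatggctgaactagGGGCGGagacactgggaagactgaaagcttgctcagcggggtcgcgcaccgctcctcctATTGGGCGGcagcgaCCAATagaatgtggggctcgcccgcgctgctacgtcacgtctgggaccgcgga
The gap between THUMPD3-AS1 and SETD5 held 3 CCAAT boxes and 2 GC boxes, that between CHCHD4 and TMEM43 held 1 NRF1 site, that between XPC and LSM3 held 1 GC box, and the 26 bases between SRGAP3 and THUMPD3 held none of these. In the OXNAD1 window, 1 CCAAT box and 1 GC box overlap.

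Promoter windows of 250 bases before and 50 bases after the start were found in RefSeq for 60 of the 67 members. Their letters were mostly close to those of expressed genes. For a member the window nearest its outermost counted start was taken, and for the compared promoters the first listed of each gene. Their median GC content was 65.8%, against 66.0% for 8254 promoters of genes at 5 CPM or more and 58.3% for all 27305 promoters. The GC box (GGGCGG, either strand) was in 75% of member windows, against 72.0% of expressed and 44.6% of all promoters, and the CCAAT box was in 36.7%, against 38.0% and 35.7%. The ETS site (CCGGAAG) was in 28.3% of member windows, against 21.4% and 10.7%, and the E-box (CACGTG) in 8.33%, against 10.6% and 7.43%. The NRF1 site (TGCGCATGC) was in 5%, that is in CHCHD4, TMEM43 and RAD18, against 3.02% and 1.65%. The TATA box (TATAAA) was in 3.33% of member windows, against 4.88% and 12%. The YY1 site (AAGATGGCG) was in 1.67%, against 4.71% and 1.85%, and the CRE (TGACGTCA) in 3.33%, against 3.46% and 1.98%. No member window held the AP-1 site (TGANTCA), found in 3.85% of expressed promoters, or the EGR site (GCGTGGGCG), found in 1.41%. A match gives letters in a window and says nothing of binding.

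Genes of the stretch below 5 CPM in both groups did not enter the choice of the bounds and were tested in the same fit. Of 134 such genes, 17 passed the filter on low counts, and 11 of these fell in inactivated cells, against 19.1% of all 4567 tested genes below 5 CPM, while 1 rose, against 26% of all genes at that level. Of the 11, 7 reached the level of that filter, 0.282 CPM, in all 3 libraries of control cells but not of inactivated cells. They entered the test through the group where they were high, so nothing is read from the count of 11. Of the 10 genes at that level in all 6 libraries, 4 fell and 1 rose. The share among all genes at that level in all 6 libraries was not counted, so nothing is read from these counts either. The 4 were ARPC4-TTLL3, PRRT3, LOC124909347 and LINC00852. The ARPC4-TTLL3 call was lost on lane 2 alone (-0.295), without inactivated replicate 2 (-0.291) and without control replicate 1 (-0.365). LINC00852, a long noncoding RNA, had 0.574, 0.766 and 0.409 normalised CPM in inactivated cells, against 1.35, 1.44 and 1.54 in control cells, at -1.26 ± 0.24 (edgeR adjusted p = 0.000173). Among the 7, FGD5, an exchange factor for CDC42 best known in endothelium, had 0.109, 0.202 and 0.322 normalised CPM in inactivated cells, against 2.84, 2.48 and 2.23 in control cells. Its groups were far apart, at a log2 fold change of -3.58 ± 0.27. No p-value is given for the 7, since they entered the test through control cells. PRRT3, a proline-rich membrane protein, fell with 1.24 ± 0.238 normalised CPM in inactivated cells and 1.97 ± 0.103 in control cells (SD, n = 3 each; edgeR adjusted p = 0.00393). GALNT15, another of the 7 and an enzyme that starts mucin-type glycosylation, had a log2 fold change of -1.68 ± 0.40. Its level was 0.189 ± 0.0464 normalised CPM in inactivated cells and 0.593 ± 0.258 in control cells (SD, n = 3 each). COLQ, the collagen-like tail of acetylcholinesterase, was the gene that rose, with 2.71, 2.44 and 2.63 normalised CPM in inactivated cells, against 2.14, 1.70 and 1.66 in control cells, at 0.49 ± 0.16 (edgeR adjusted p = 0.0111). That call was lost without control replicate 2, without control replicate 3 and on lane 2 alone, with log2 fold changes of 0.44, 0.42 and 0.38. With either lane alone, 6 of the 17 genes fell. Among the others, TTLL3, a tubulin glycylase, stood at 0.64 ± 0.27 and OXTR, the oxytocin receptor, at -0.15 ± 0.16, and neither passed. TTLL3 did pass as higher with DESeq2 size factors, with library totals alone and with TMM without the chromosomes with shifted stretches. It also passed with no filter and without inactivated replicate 3 (0.85). ARPC4-TTLL3, PRRT3, LOC124909347, GHRLOS and LOC107986065 share exon bases with members, LOC107986065 only 6 of them, so part of their counts may come from those members.

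For 24 members that belong to a known complex or pathway, the other genes of that complex or pathway outside the stretch were taken as partners. Of 322 partners in the table, 304 were tested, and 85 of them (28%) fell, 79 (26%) rose and 140 did not pass, shares close to those of all genes tested. The median log2 fold change of the partners was -0.012. The member lay below the median of its own partners in 22 of the 24 lists, all but those of DPH3 and ITPR1, which follows from bounds drawn from low fold changes, and nothing is read from it. Some partners lie in stretches of chromosomes 1, 6, 7, 12 and 17 that were also drawn from these fold changes. Without these there were 261 tested partners, with a median of -0.039, of which 82 fell and 43 rose. Among the 82 are KAT2B of the TADA3 list, at -0.43, and NR1D2 of the BHLHE40 list, at -0.33. Both belong to the next 39 genes of chromosome 3 beyond SATB1, where lower calls were still frequent.

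In the DNA repair lists the partners changed in both directions. Of 19 tested partners of XPC in nucleotide excision repair, 3 fell and 2 rose, 14 did not pass, and the median was -0.014. ERCC2, a helicase of TFIIH, fell with 55.1 ± 2.12 normalised CPM in inactivated cells and 68.0 ± 3.62 in control cells, at -0.30 ± 0.050 (SD, n = 3 each; edgeR adjusted p = 3.5e-05). GTF2H5, the smallest TFIIH subunit, rose with 37.1 ± 0.903 normalised CPM in inactivated cells and 24 ± 1.33 in control cells, and lies in the chromosome 6 stretch (SD, n = 3 each; edgeR adjusted p = 1.3e-08). Of 21 partners of FANCD2 in the Fanconi anaemia pathway, 6 fell and 11 rose, 4 did not pass, and the median was 0.19. Of these, 5 that rose lie in the other stretches, and among the other 16 partners 6 fell and 6 rose, with a median of 0.046. The largest fold change was that of BRIP1, a helicase on chromosome 17 in another such stretch, which stood at 0.88 ± 0.059. Base excision repair partners of OGG1 gave 4 that fell, 4 that rose and 6 that did not pass, with the uracil glycosylase UNG at -0.56 ± 0.045, below OGG1. Of 12 partners of RAD18 in translesion synthesis, 3 fell, 4 rose and 5 did not pass, with the polymerase POLH at 0.88 ± 0.053 on chromosome 6. Outside the other stretches, 1 partner of OGG1 and 1 of RAD18 rose.

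Among complexes of the cytoskeleton and secretory route, partners also changed in both directions. ARPC4, NUP210, ATG7 and EDEM1 lay below all their partners, as the member did in 13 of the 24 lists. That follows from bounds drawn from low fold changes, and nothing is read from it. Of 8 Arp2/3 partners of ARPC4, 1 fell and 4 rose, and the median was 0.11. ACTR2, the Arp2 subunit, rose with 708 ± 14 normalised CPM in inactivated cells and 609.5 ± 8.07 in control cells (SD, n = 3 each; edgeR adjusted p = 0.000162). Of 7 WAVE partners of BRK1, 3 fell and 2 rose. CYFIP2, the WAVE subunit that binds RAC, fell to 18.3 ± 1.38 normalised CPM in inactivated cells, against 63.7 ± 2.87 in control cells (SD, n = 3 each), at -1.80 ± 0.059 (edgeR adjusted p = 5.7e-15), while ABI1, an adaptor that binds ABL kinases, rose by 0.64 ± 0.043 (edgeR adjusted p = 2.1e-10). Of 26 nuclear pore partners of NUP210, 4 fell and 11 rose, and the median was 0.070. POM121 was the lowest at -0.86 ± 0.049 and lies in the chromosome 7 stretch. Outside the other stretches, 3 of 19 nuclear pore partners fell and 5 rose. COPII partners of SEC13 gave 2 that fell and 3 that rose of 12, with the coat subunit SEC24D at -2.95 ± 0.26 from a control level of 2.01 ± 0.240 normalised CPM. In inactivated cells SEC24D had 0.253 ± 0.0677, under the filter level of 0.282 CPM. It entered the test through control cells, so nothing is read from its call. Autophagy partners of ATG7 gave 5 that fell and 2 that rose of 13, and ER membrane complex partners of EMC3 gave 3 that fell and 1 that rose of 8. Of 14 partners of EDEM1 in ER-associated degradation, 5 fell and 5 rose, and VCP, the ATPase that extracts substrates, rose with 768 ± 20.9 normalised CPM in inactivated cells and 439.6 ± 15 in control cells (SD, n = 3 each; edgeR adjusted p = 9.8e-12).

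Lists of RNA metabolism and mitochondria had partner medians between -0.16 and 0.070. Of 6 LSM partners of LSM3, 1 fell and 5 did not pass, and they ranged from -0.17 for LSM4 to 0.016 for LSM1, against -0.59 for LSM3. The LSM4 call was lost without inactivated replicate 2, where its log2 fold change was -0.0995. Of 7 partners in diphthamide synthesis with DPH3, 4 fell and 1 rose. DPH3, at -0.15, lay at its partners' median of -0.16. Of 29 mitochondrial small subunit partners of MRPS25, 5 fell and 8 rose, 16 did not pass, and the median was -0.024. Outside the other stretches, 5 of 23 fell and 3 rose. Of 14 partners of CHCHD4, among them its import substrates, 2 fell and 1 rose, and the range of -0.21 to 0.15 lay well above CHCHD4 at -0.86. Cardiolipin partners of TAMM41 gave 1 that fell and 1 that rose of 8. The 1 that rose, PGS1, lies in the chromosome 17 stretch. Biotin partners of BTD gave 2 that fell and 2 that rose of 9, from the carboxylase ACACB at -0.996 ± 0.059 to the pyruvate carboxylase PC at 1.13 ± 0.066.

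In chromatin and signalling lists, partners moved both ways, except that none rose among the 5 of CRBN and the 12 of BHLHE40. Over all genes tested 29.7% were lower and 29.6% higher, and no direction is read from these short lists. Of 23 SAGA and ATAC partners of TADA3, 5 fell and 9 rose, or 5 and 4 of the 18 outside the other stretches. Of 10 partners of BRPF1, 3 fell and 3 rose, and of 5 corepressor partners of SETD5, 2 fell and 1 rose. Of 5 partners of CRBN, 3 fell and none rose, and the scaffold CUL4A, at -0.74 ± 0.039, lay as low as CRBN at -0.70. CUL4A had 163, 167 and 167 normalised CPM in inactivated cells, against 275, 279 and 278 in control cells (edgeR adjusted p = 6.8e-12). ITPR1 stood above 14 of its 15 partners in calcium release, pumps and entry, of which 10 fell and 2 rose. ATP2B3, a calcium pump of the plasma membrane, fell to 1.33 ± 0.0841 normalised CPM in inactivated cells, against 11.5 ± 0.946 in control cells (SD, n = 3 each), at -3.10 ± 0.12 (edgeR adjusted p = 4.5e-14). Of 12 clock partners of BHLHE40, 4 fell and none rose. BHLHE41, its closest relative, was at 0, 0.0202 and 0.0292 normalised CPM in inactivated cells, at or under the level that a count of 0 allows, against 0.703, 1.32 and 0.813 in control cells. BHLHE41 is among the 4 and entered the test through control cells, so nothing is read from its call. Of 8 SLIT and ROBO partners of SRGAP3, 4 fell and 2 rose, with the ligand SLIT1 at -2.61 ± 0.065 and the ligand SLIT2 at 2.04 ± 0.061.

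**Figure D5:**
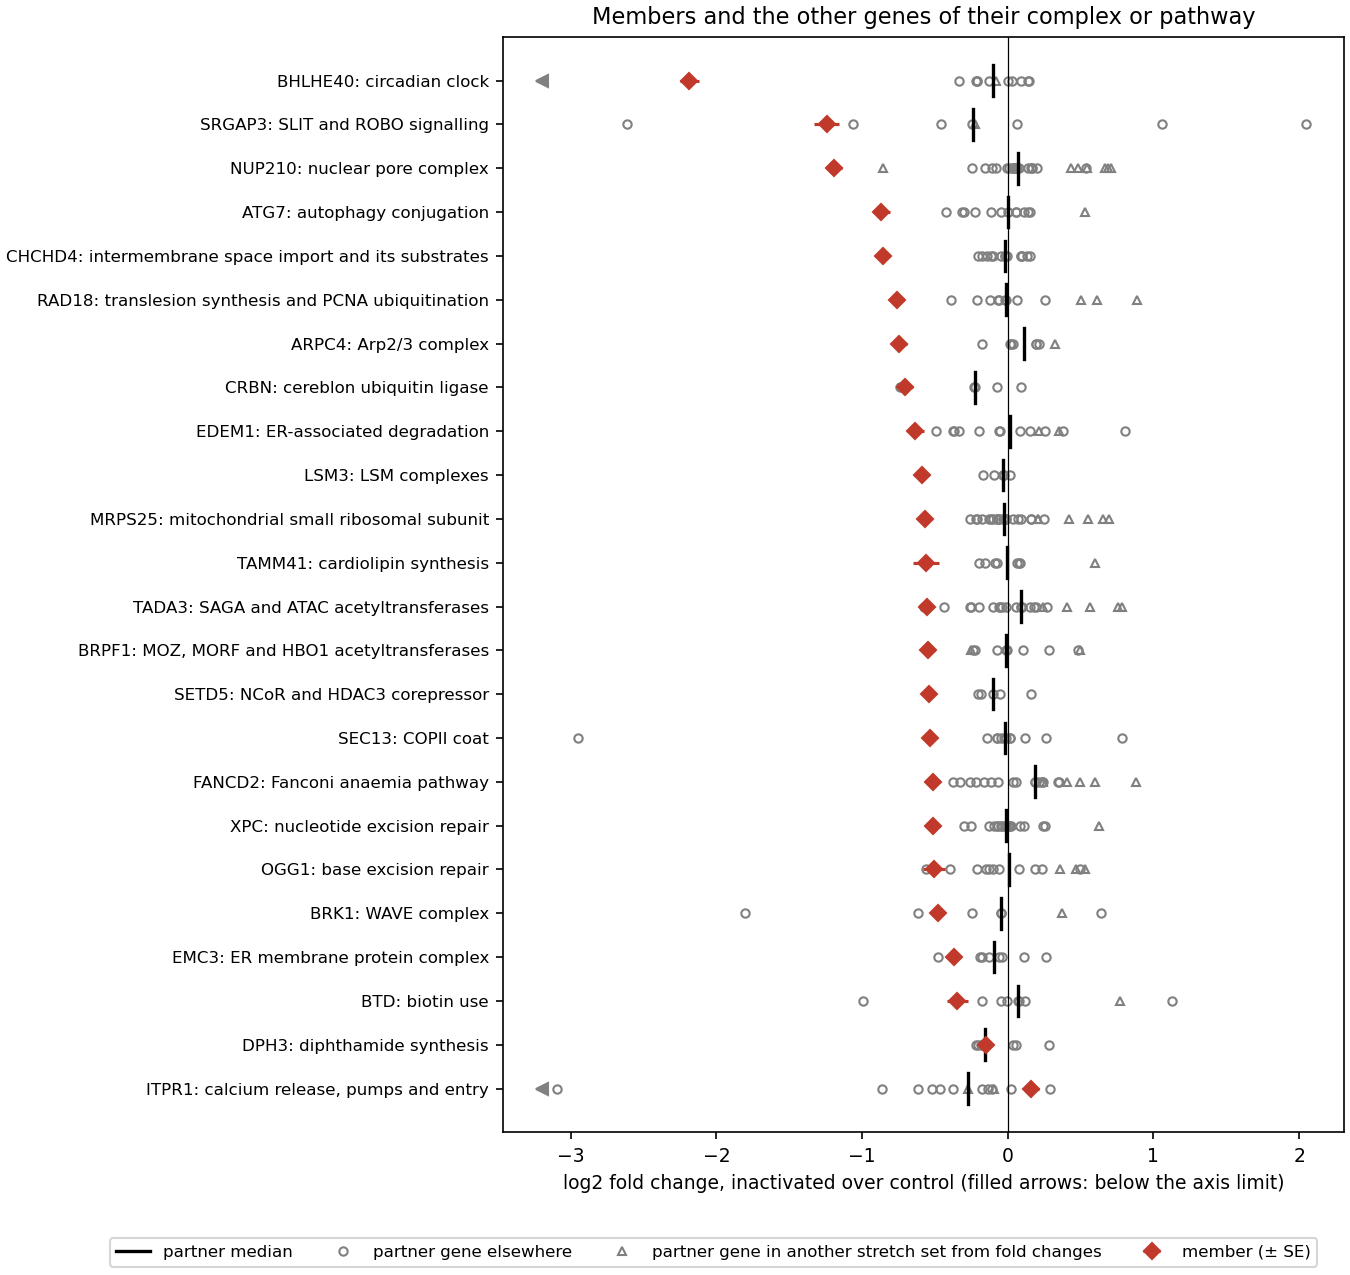
For each of 24 members (red diamonds, ± SE) the log2 fold changes of the other genes of its complex or pathway are shown in grey, as circles or, where they lie in another stretch drawn from fold changes, as triangles, with black bars for partner medians. Partner medians lie between -0.27 and 0.19, and all members but DPH3 and ITPR1 lie left of theirs, as the choice of low members sets.

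Near the limit of 5 CPM that set membership, the 3 members just inside were IL17RC, PRRT3-AS1 and PPARG, at -0.23, -0.63 and -0.95. The 3 genes just outside were LOC124909347, HDAC11 and ARPC4-TTLL3, at -0.89, -0.19 and -0.39. The first 3 members at the outer end were CNTN4, TRNT1 and CRBN, and the last 3 at the inner end were RFTN1, TBC1D5 and SATB1.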

How the data were processed

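RNA sequencing counts of 6 libraries of D283 cells, 3 with ABL1 and ABL2 inactivated and 3 with a scrambled control, were analysed. Per the submitters' processing notes, reads were handled with STAR 2.7.2b and featureCounts 1.6.3 on build GRCh38.p14, with FastQC 0.11.9, MultiQC 1.11 and DESeq2 1.36.0 also named. The values deposited by the authors are raw counts per gene and lane. The deposited table also gives summed exon lengths in bases, an other unit used here for levels per kilobase. The sources used here do not give how strand and multiply aligned reads were treated. The 2 lanes of a library were summed, and 26 genes without a whole-number count value in every lane were left out. Genes with 0 reads were kept.

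Genes were filtered by filterByExpr (minimum count 10, minimum total 15), TMM-scaled (the trimmed mean of M values between libraries) and compared by the two-sided quasi-likelihood F test of edgeR 4.0.16. P-values were adjusted by Benjamini-Hochberg over the 14704 genes tested, with 0.05 as the threshold. The SE of a log2 fold change is its size over the square root of F. "Rose" and "fell" are used of genes past the threshold. Membership used CPM from library totals. Other settings were size factors of DESeq2 1.42.0, library totals alone, TMM without the chromosomes with shifted stretches, no filter, the DESeq2 test, limma 3.58.1 with voom, each lane alone, each library left out and other membership levels. The gene test was tested on simulated data.

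The members, role groups, partner lists, markers and motifs were chosen with earlier results of these data known. Values per library are given for ABL1 and ABL2, for the 6 members with the lowest and the 6 with the highest fold change, and, in each role group, for up to 3 members by level and the extremes. Each partner list names up to 2 genes by p. Other genes named were chosen after their values were seen. Promoter sequences are from RefSeq on GRCh38.p14, and motifs were searched on both strands. Windows were matched for 60 of the 67 members. The single values of 3 members are not reported here. Library depth was 33505903 to 49034159 counts.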

Additional observations from a re-analysis of the deposited data

How the results depend on the processing

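The count of genes below 5 CPM past the threshold moved with depth and with the filter. On lane 1 alone and on lane 2 alone 6 of them fell (11 with both lanes), and none rose on lane 2 alone. With no filter on low counts 17 fell and 3 rose. With DESeq2 size factors, with library totals alone and with TMM from genes outside chromosomes 1, 3, 6, 7, 12 and 17, 2 rose. The median log2 fold change of the members was -0.5954 with that TMM, -0.5883 on lane 1 alone and -0.5942 with membership at 10 CPM or more, against -0.6238. By the DESeq2 test 61 members were lower and 2 higher, and by limma-voom 63 and 2. Leaving out 1 library at a time, the median ranged from -0.6409 to -0.5823, members lower from 61 to 64 and members higher from 1 to 2, while 10 to 13 genes below 5 CPM fell and 0 to 2 rose, and 71 to 82 partners fell and 70 to 91 rose. Without partners in the other stretches, an alternative chosen after seeing the data, 82 fell and 43 rose, against 85 and 79. With the 4 genes left out by rule, also chosen after seeing the data, the median was -0.6238. Neither the median of the members nor the fold change of a gene past the threshold was reversed under the settings run, but partner medians near 0 changed sign under some of them. Of the fold changes of single genes under these settings, 1801 kept their direction and side of the threshold, 44 lost the threshold and 7 gained it. Among members these were ITPR1, THUMPD3-AS1, RPUSD3 and CRELD1, which lost it under some settings, and IL17RC, which passed without inactivated replicate 2 (-0.29). The cause was not tested. No paired analysis was possible because the labels carry no replicate numbers, and the numbers used here only name the libraries.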
